A study of Mus musculus with 31 samples.

Results

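DN3 cells are thymocytes that have committed to the T cell lineage and are rearranging the T cell receptor beta locus, and the libraries described here follow control DN3 cells through 2 days of culture. They are the 4 libraries labelled as DN3 control on days 5 and 7, chosen by those labels from 31 samples in all. Each day has 2 libraries with the letters c and d, named here by day and letter (day 5 c). The cells came from C57BL/6 mice of genotype R26-CreERT2;R26-stop-tdTomato, which carry a tamoxifen-inducible Cre and a reporter that turns red after Cre has acted, both at the Rosa26 locus, which is active in most cells. They were grown on OP9-DL1, a stromal line that presents the Notch ligand DL1, with stem cell factor and the cytokines IL-7 and IL-2. Tamoxifen was added on day 4, and tdTomato-positive cells were sorted for RNA on days 5 and 7, so these controls also went through Cre activation and drug exposure. The groups set beside them are DN1 control cells, an earlier thymocyte stage of the same genotype grown the same way, and DN3 floxed cells, which carry the same Cre and reporter together with floxed alleles of both E protein genes (E2Af/fHEBf/f) and lose the transcription factors E2A and HEB after tamoxifen. Each of these groups also has 2 libraries per day. No source used here gives the age of the mice or says whether libraries of a group came from separate animals or cultures, so every p-value measures only the spread between these samples, which may be technical.

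E2A and HEB are E proteins, transcription factors that drive the Rag genes and the pre-T cell receptor, and Id proteins hold them in check. They also take part in controlling the passage from DN3 to the CD4 and CD8 double-positive stage. Notch signals from the stroma keep DN3 cells in the T lineage, while IL-2 and IL-7 act through STAT5 to support survival and growth. The same cytokines support innate lymphoid cells, among them ILC2, which share GATA3, RORα and IL-7 dependence with T cells. Type I interferon acts through a complex that holds STAT2 and IRF9 and binds a short element called ISRE in the promoters of their targets, and E2F factors bind the promoters of many replication genes at the G1 to S transition.

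Genes of the interferon and MHC class I lists rose between the days and replication genes fell, and promoters of these lists are printed here so that the elements can be seen beside the values. The ISRE was searched as GAAA, any 2 bases and GAAA, and the E2F site as TTTCCCGC or TTTGGCGC, on both strands, in the 250 bases before each start. Of 32851 such promoters in the RefSeq table of build GRCm38.p6, 978 (2.98%) held the ISRE letters and 427 (1.30%) held the E2F letters. These shares count promoters, whereas the list shares count a gene once if any of its promoters matched, so the units differ. Of the interferon genes that rose, 14 had an entry and 6 of these (42.9%) held the ISRE. Of the MHC class I genes that rose, 12 had an entry and 2 (16.7%) held it. Of the replication genes that fell, 24 had an entry and 6 (25.0%) held the E2F letters. The other element was in 0 of the 14 interferon genes, 2 of the 12 MHC class I genes (16.7%) and 0 of the 24 replication genes. The ISRE was also in 2 of 5 cytotoxic genes that rose (40%). The E2F letters were also in 3 of 14 MYC genes that fell (21.4%) and 3 of 11 G1 genes that rose or fell (27.3%). Several lists, such as glycolysis, held neither. The sequences below run 5′ to 3′ in the direction of the gene, with matches to the ISRE in capitals in the first group and matches to the E2F site in capitals in the second, and overlapping matches run together. A match is a description of the letters, not a bound site.

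The interferon and MHC class I promoters with an ISRE match were chosen to show a run of 3 overlapping matches, a pair of matches and single matches.
Isg15, chr4:156200819-156201068, minus strand: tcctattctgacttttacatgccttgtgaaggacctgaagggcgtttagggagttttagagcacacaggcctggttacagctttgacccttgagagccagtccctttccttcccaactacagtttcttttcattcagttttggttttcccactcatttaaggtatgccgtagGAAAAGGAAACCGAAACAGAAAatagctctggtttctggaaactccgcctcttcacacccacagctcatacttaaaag
Ifit1, chr19:34640639-34640888, plus strand: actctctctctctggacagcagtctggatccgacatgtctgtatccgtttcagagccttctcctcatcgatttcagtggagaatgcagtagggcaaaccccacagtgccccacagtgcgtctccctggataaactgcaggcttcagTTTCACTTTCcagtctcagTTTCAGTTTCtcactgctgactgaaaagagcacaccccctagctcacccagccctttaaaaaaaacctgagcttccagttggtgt
Stat2, chr10:128270248-128270497, plus strand: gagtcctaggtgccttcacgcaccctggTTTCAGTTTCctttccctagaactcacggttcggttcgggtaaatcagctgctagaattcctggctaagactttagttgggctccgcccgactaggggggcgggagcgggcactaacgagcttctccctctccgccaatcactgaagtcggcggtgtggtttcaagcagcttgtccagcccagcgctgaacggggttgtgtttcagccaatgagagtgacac
B2m, chr2:122147437-122147686, plus strand: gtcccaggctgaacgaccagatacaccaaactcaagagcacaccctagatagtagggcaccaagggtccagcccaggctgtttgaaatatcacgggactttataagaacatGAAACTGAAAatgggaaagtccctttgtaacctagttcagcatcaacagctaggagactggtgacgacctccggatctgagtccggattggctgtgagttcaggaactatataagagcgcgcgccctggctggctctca

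The replication promoters with an E2F match belong to subunits of the MCM helicase and to its loader CDC6.
Mcm6, chr1:128359706-128359955, minus strand: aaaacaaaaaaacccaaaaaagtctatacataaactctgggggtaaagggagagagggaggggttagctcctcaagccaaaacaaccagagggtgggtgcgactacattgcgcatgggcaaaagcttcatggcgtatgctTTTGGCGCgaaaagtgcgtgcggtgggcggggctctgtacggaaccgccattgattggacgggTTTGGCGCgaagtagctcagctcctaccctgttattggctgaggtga
Mcm5, chr8:75109259-75109508, plus strand: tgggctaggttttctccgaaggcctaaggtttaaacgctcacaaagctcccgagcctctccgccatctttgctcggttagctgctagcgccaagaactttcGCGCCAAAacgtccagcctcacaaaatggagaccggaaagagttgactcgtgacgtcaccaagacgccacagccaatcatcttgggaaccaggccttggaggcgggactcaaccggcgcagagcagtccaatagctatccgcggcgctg
Cdc6, chr11:98907901-98908150, plus strand: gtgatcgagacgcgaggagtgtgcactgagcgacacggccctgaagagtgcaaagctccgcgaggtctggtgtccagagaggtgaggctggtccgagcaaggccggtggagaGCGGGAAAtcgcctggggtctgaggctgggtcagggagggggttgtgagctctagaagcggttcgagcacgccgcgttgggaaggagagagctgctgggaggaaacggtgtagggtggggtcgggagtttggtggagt

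The 4 libraries held 7066920 to 9671593 counts, and the 12 libraries of the groups compared held 5908459 to 9671593. Levels are given as CPM, a library's counts scaled to a common total, and are compared only within a gene. Across 15172 tested genes, 3073 (20.3%) differed between day 7 and day 5 by edgeR's quasi-likelihood test at an adjusted p (Benjamini-Hochberg) under 0.05: 1597 (10.5%) rose and 1476 (9.73%) fell. The rises were larger. Their median log2 change was 1.01, from a median day 5 level of 13.1 CPM, and 808 of the 1597 exceeded 2-fold. The falls had a median log2 change of -0.57, from a median day 5 level of 93.8 CPM, and 96 of the 1476 exceeded 2-fold. With 1 of the 4 libraries left out at a time, the count of called genes was 1990 without day 5 c, 1741 without day 5 d, 1535 without day 7 c and 1924 without day 7 d. Values after ± are standard errors of the log2 change between days of 2 libraries each. Their spread was estimated over all 24 culture libraries, so they do not measure the scatter of these 4 alone. The sources used here do not give the strand setting of the counting, so overlapping genes on opposite strands may share reads.

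The sorted cells kept T lineage transcripts at both days. Thy1 stood at 439 and 440.0 CPM on day 5 and 428 and 436 on day 7. Cd3e stood at 174 and 164 CPM on day 5 and 174 and 198 on day 7, and Bcl11b, the factor that secures T lineage commitment, at 1317 and 1378 CPM on day 5 and 1602 and 1634 on day 7. None of the 3 passed the test, with log2 changes of -0.02, 0.14 and 0.26. The genes deleted in the floxed groups were present in these controls: Tcf12, which encodes HEB, stood at 494 and 509 CPM on day 5 and 508 and 505 on day 7. Tcf3, which encodes E2A, stood at 114 and 109.5 CPM on day 5 and 93.8 and 100.1 on day 7. Neither gene passed the test, at log2 changes of 0.02 ± 0.10 and -0.20 ± 0.34.

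Transcripts that mark other cells were few, and some moved. The 21 stromal markers summed to 71.6 and 103 CPM at their lowest and highest on day 5 and to 92.7 and 103 on day 7. Of 20 tested, 2 rose, Pdgfrb and Dlk1, a share no higher than the 10.5% over all tested genes. Pdgfrb, a growth factor receptor of mesenchyme, stood at 22.9 and 15.9 CPM on day 5 and 38.4 and 36.8 on day 7. Dlk1 stood at 0.534 and 0.954 CPM on day 5 and 3.77 and 2.24 on day 7, while Lum was at 0 in both day 5 libraries. Dlk1 lost its call without day 5 c and without day 7 c. The 15 myeloid markers summed to 4.36 to 19.5 CPM on day 5 and 20.6 to 22.6 on day 7. Of 12 tested, 1 rose, also no higher a share than 10.5%. Ctss, that member, stood at 3.74 and 2.32 CPM on day 5 and 13.5 and 13.5 on day 7 and lost its call without day 5 d, while Adgre1, Elane and Fcgr1 were at 0 in all 4 libraries. The 10 B cell markers summed to 4.90 to 6.14 CPM and then to 13.4 in both day 7 libraries. Of 3 tested B cell markers, Ebf1, at 0.534 and 0.681 CPM on day 5 and 2.09 and 2.04 on day 7, and Vpreb1, at 2.53 and 1.36 CPM on day 5 and 4.61 and 5.2 on day 7, rose, and neither call was kept without day 5 d, day 7 c or day 7 d. Pax5 and Cd79a, which define B cells, were at or near 0: Pax5 stood at 0 and 0.136 CPM on day 5 and 0 and 0.102 on day 7, and Cd79a at 0 and 0 CPM on day 5 and 0 and 0.102 on day 7. The 8 mast cell markers summed to 1.77 to 3.60 CPM and then to 12.3 to 20.4, with Cpa3 alone rising of 3 tested, from 1.47 and 1.77 CPM to 17.2 and 10.1. Fcer1a, Ms4a2 and Tpsb2, which define mast cells, were at 0 throughout. The 12 dendritic markers summed to 76.7 to 87.2 CPM and then to 179 to 191, mostly from Ccr9, which thymocytes also express, and Clec9a and Itgax were at 0 in all 4 libraries. The 12 muscle markers summed to 17.0 to 72.7 and 25.7 to 44.2 CPM and the 7 erythroid markers to 1.23 to 3.34 and 2.45 to 4.05 CPM. With the main filter, no member of either list passed edgeR's or DESeq2's test or had an unadjusted p under 0.05. With no filter on low counts, 2 muscle markers fell. The part of these cells in the gene changes was not tested. In sorted bulk samples, fewer cells of a type and less RNA per cell cannot be told apart.

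Of the 4 genes that mark the stages at issue, Gzmb rose and the other 3 did not pass the test. Gzmb (chromosome 14, 56258838 to 56262260, GRCm38), which encodes the cytotoxic protease granzyme B, stood at 22.7 and 29.3 CPM on day 5 and 192 and 134 on day 7. The groups did not overlap, and the log2 change was 2.65 ± 0.49 (n = 2 libraries per day, edgeR's quasi-likelihood test, adjusted p = 7.70e-04). Rag1 (chromosome 2, 101638282 to 101649501), a subunit of the recombinase that rearranges receptor genes, stood at 237 and 404 CPM on day 5 and 569 and 491 on day 7, with a log2 change of 0.72 ± 0.34 (adjusted p = 0.15). Both day 7 libraries were above both day 5 libraries, but the day 5 libraries differed from each other by more than the day 7 libraries did. Cd8a (chromosome 6, 71373427 to 71379173) stood at 51 and 55.6 CPM on day 5 and 81.1 and 97.5 on day 7, and its log2 change was 0.75 ± 0.43 (adjusted p = 0.246). Cd4 (chromosome 6, 124864692 to 124888221), the other coreceptor, stood at 19.6 and 30.2 CPM on day 5 and 30.3 and 39.1 on day 7, a log2 change of 0.48 ± 0.41 (adjusted p = 0.455). The day 7 c library of Cd4 lay within 1 CPM of day 5 d, so the days barely separated. Cd8a passed in several other fits: the adjusted p was 0.0240 with days 5 and 7 of all cultures alone, 0.00132 with the 4 libraries alone and 0.00216 with all libraries and no filter on low counts. Rag1 passed with the 4 libraries alone (adjusted p = 0.0139) and with no filter (8.26e-07) but not with days 5 and 7 of all cultures (0.120). Cd4 passed in none of these 3 fits. With DESeq2's test the adjusted p was 0.672 for Cd8a and 0.349 for Rag1. Neither passed with DESeq2's scaling in edgeR's test (adjusted p = 0.240 and 0.144) or with a filter of 50 counts (0.20 and 0.112). With a library left out, log2 changes were 0.61 to 0.87 for Cd8a and 0.36 to 1.16 for Rag1. The standard error of the Cd8a change was 0.43 in the main fit and 0.12 with the 4 libraries alone.

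**Figure D1:**
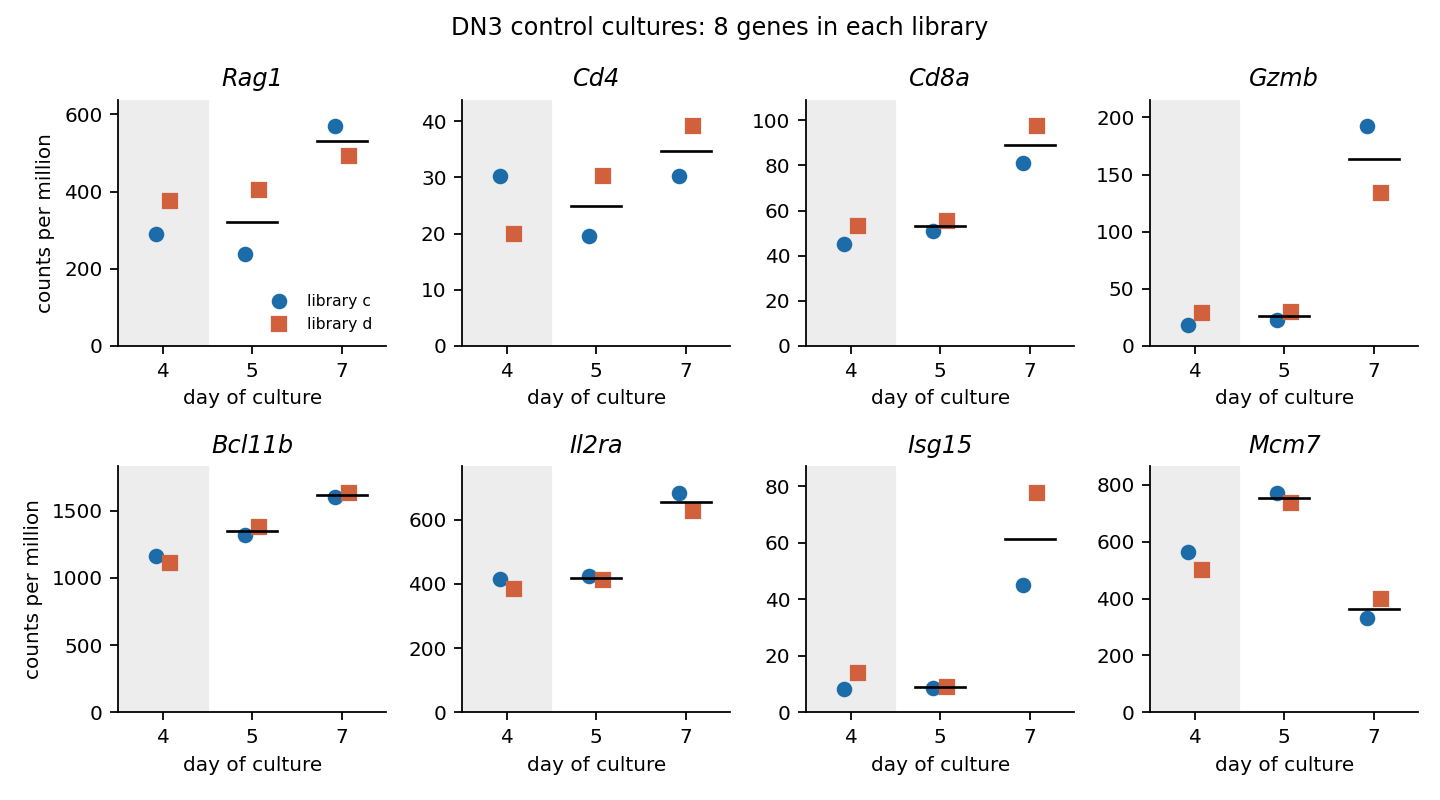
CPM (linear axis from 0) of 8 genes in each DN3 control library on days 4, 5 and 7, with circles for library c, squares for library d and a black line at the mean of the 2 libraries on days 5 and 7. The shaded day 4 libraries were unsorted and made before tamoxifen, and are shown for orientation. Gzmb, Il2ra and Isg15 were higher on day 7 than on day 5 and Mcm7 was lower, while Rag1, Cd4, Cd8a and Bcl11b did not pass the test.

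Most genes of the coreceptor and double-positive list did not pass the test, though 14 of the 15 tested changes were positive. Of the 15, 3 rose and none fell, against 10.5% and 9.73% of all tested genes. The median log2 change was 0.48 against 0.06 over all tested genes. Ccr9, a chemokine receptor of thymocytes, stood at 36.8 and 42.4 CPM on day 5 and 124 and 133 on day 7 (log2 change 1.7 ± 0.43). Bcl6, a repressor of the later stages, stood at 7.87 and 9.13 CPM on day 5 and 18.7 and 20.6 on day 7 (log2 change 1.21 ± 0.38). Slamf1, a surface receptor, stood at 12.7 and 15.8 CPM on day 5 and 21.8 and 23.2 on day 7 (log2 change 0.66 ± 0.21). All 3 had groups that did not overlap, yet none of the calls was firm: leaving out day 5 c or day 5 d ended all 3, and leaving out day 7 c or day 7 d left 1. Cd8b1, the partner chain of Cd8a, stood at 51.5 and 61.8 CPM on day 5 and 105 and 130.1 on day 7, a log2 change of 1.05 ± 0.49 (adjusted p = 0.14). With the spread estimated from the 4 libraries alone, 8 list members rose. Cd8b1 then had an adjusted p of 2.29e-04. Its adjusted p was 0.0105 with days 5 and 7 of all cultures and 3.96e-07 with no filter on low counts. Cd8b1 did not pass with DESeq2's test (adjusted p = 0.468). Nor did it with DESeq2's scaling in edgeR's test (0.137) or a filter of 50 counts (0.114). Satb1, the most abundant member by CPM that did not pass, stood at 519 and 581 CPM on day 5 and 583 and 666 on day 7.

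Recombination and T cell receptor genes mostly did not pass. Lig4, the ligase that seals recombination breaks, was the 1 of 10 recombination genes that rose, a share no higher than the 10.5% over all tested genes. It stood at 56.2 and 73.4 CPM on day 5 and 107 and 94.7 on day 7 (edgeR's test, adjusted p = 0.0499), and no fit that left out a library kept that call. Dntt, which adds nucleotides at the joins, stood at 999.7 and 1099 CPM on day 5 and 879 and 848 on day 7 and did not pass. Of 8 pre-T cell receptor, CD3 and receptor chain genes, 2 fell, against 9.73% of all tested genes. Ptcra, the surrogate alpha chain that pairs with a new beta chain, stood at 41.6 and 60.1 CPM on day 5 and 26.4 and 26.7 on day 7 (log2 change -0.94 ± 0.27). Trbc2, a beta constant gene, stood at 2233 and 2302 CPM on day 5 and 1833 and 1702 on day 7 (-0.36 ± 0.12). Ptcra kept its call without day 5 c only, and Trbc2 lost it without any one of the 4 libraries. Cd3d, the most abundant of the list by CPM that did not pass, stood at 508 and 451 CPM on day 5 and 543 and 575 on day 7.

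Of 17 tested factors that specify T cells 3 rose and 1 fell, a count of falls no higher than the 9.73% over all tested genes would give. Spib, an Ets factor transient in early thymocytes, stood at 5.87 and 4.09 CPM on day 5 and 22.6 and 24.2 on day 7 (log2 change 2.23 ± 0.33). Ikzf2, which encodes Helios, stood at 66.7 and 82.7 CPM on day 5 and 166 and 143 on day 7 (1.05 ± 0.18). In both genes the day 7 libraries lay far from the day 5 libraries. Gata3, required for T cells and ILC2 alike, stood at 88.5 and 116 CPM on day 5 and 186 and 142 on day 7 (0.68 ± 0.20), and Zfpm1, a cofactor of GATA factors known as FOG1, fell at 53.4 and 48.2 CPM on day 5 and 30.3 and 36.7 on day 7 (-0.60 ± 0.16). The calls on Gata3 and Zfpm1 were lost without day 5 c and without day 7 c. Of the 10 Notch pathway genes only Cdkn1b, a cell cycle inhibitor, rose, a share no higher than the 10.5% over all tested genes. It stood at 40.8 and 43 CPM on day 5 and 65 and 73.4 on day 7, and lost its call without day 5 c or day 7 d. Notch1 stood at 286 and 351 CPM on day 5 and 340.0 and 341 on day 7. Dtx1, a Notch target, stood at 139 and 115 CPM on day 5 and 113 and 130.0 on day 7, and neither passed.

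Inhibitors of the E proteins rose. Id1 stood at 4.27 and 8.17 CPM on day 5 and 17.4 and 16 on day 7 (log2 change 1.42 ± 0.26). Id2 stood at 113 and 100.1 CPM on day 5 and 212 and 189.5 on day 7 (0.91 ± 0.20). Id3 stood at 202 and 187 CPM on day 5 and 336 and 289 on day 7 (0.68 ± 0.16). Adjusted p-values were 6.76e-04, 0.00334 and 0.00564, and Id3 lost its call without day 5 d and without day 7 c. The other 5 of the 8 E and Id protein genes, Tcf12 and Tcf3 among them, did not pass. Of 13 CD4 and CD8 lineage genes 6 rose and 1 fell: Ccr7, S1pr1 and Klf2 are described with homing, and Cbfb, a partner of RUNX factors, was the member that fell, at 229 and 239 CPM on day 5 and 191 and 167 on day 7, a call lost without day 5 d or day 7 d. Tox, needed for CD4 lineage cells, did not pass, at 79.4 and 86.6 CPM on day 5 and 113 and 106 on day 7. The count of rises was 3 without day 5 c or day 5 d and 2 without day 7 c.

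Genes of cytotoxic and innate lymphocytes rose in part. Among markers of NK cells and ILC2, Gzmb, Gzma, Nkg7 and Rora rose. Others, namely Ncr1, Klrb1c, Il13, Il5, Il1rl1 and Zbtb16, stayed low and were named after their values were seen. Of 16 tested cytotoxic and NK genes 7 rose and none fell, with a median log2 change of 1.45. Gzma, granzyme A, stood at 755 and 609.6 CPM on day 5 and 2306 and 1731 on day 7 (log2 change 1.56 ± 0.18, adjusted p = 7.92e-06). Nkg7, a granule membrane protein, stood at 12.1 and 11.2 CPM on day 5 and 66.4 and 58.2 on day 7 (2.42 ± 0.31, adjusted p = 2.57e-05). Srgn, which encodes the granule proteoglycan serglycin, stood at 35.4 and 41.1 CPM on day 5 and 67.7 and 60.4 on day 7 (0.74 ± 0.22), a call that no fit with a library left out kept. Tbx21, the gene of T-bet, stood at 2.94 and 4.63 CPM on day 5 and 1.68 and 2.04 on day 7 and did not pass. Ncr1 had 0 and 0 CPM on day 5 and 0 and 0.102 on day 7 and Klrb1c 0.801 and 0.136 CPM on day 5 and 0.698 and 0.204 on day 7, so these NK receptors were at or near 0 in all 4 libraries. The count of rising list members was 4 without day 5 c, day 5 d or day 7 c and 3 without day 7 d.

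Of 21 tested ILC2 genes 8 rose and none fell, and the median log2 change was 1.71 as fitted and 0.82 with the 2 affected genes set to their counting bound. Maf, a transcription factor of effector lymphocytes, stood at 8.14 and 7.49 CPM on day 5 and 62 and 44.2 on day 7 (log2 change 2.76 ± 0.39). Icos, a costimulatory receptor, stood at 6.8 and 7.08 CPM on day 5 and 43.4 and 25.2 on day 7 (2.29 ± 0.47). Cysltr1, a leukotriene receptor, stood at 1.07 and 0.272 CPM on day 5 and 14.1 and 8.77 on day 7 (4.03 ± 0.68). In each of these the lower day 7 library exceeded the higher day 5 library by a wide margin. Rora, which ILC2 require, stood at 5.47 and 3.41 CPM on day 5 and 23 and 16.8 on day 7 (2.15 ± 0.48), and lost its call without day 5 d. Il4 had no count on day 5 and 0.698 and 0.51 CPM on day 7, at least 2.91-fold higher against a floor of 3 counts over the day 5 group, and its call was lost without any one of the 4 libraries. Lmo4, the most abundant ILC2 list member that did not pass, stood at 156 and 166 CPM on day 5 and 123 and 128 on day 7. With 1 library left out, 6 or 7 members of the list rose. Several other markers of ILC2 stayed low, although Il13 was higher on day 7. Il13 had 0.133 and 0.136 CPM on day 5 and 0.698 and 1.02 on day 7. Il5 had 0 and 0 CPM on day 5 and 0.279 and 0 on day 7. Il1rl1, the IL-33 receptor, had 0.667 and 0 CPM on day 5 and 0.558 and 0.408 on day 7, and Zbtb16, of innate-like T cells and ILC precursors, 0 and 0 CPM on day 5 and 0.14 and 0 on day 7. Of 3 ILC3 genes Ahr, the aryl hydrocarbon receptor, rose at 9.61 and 11.4 CPM on day 5 and 26 and 17.9 on day 7, though only day 7 d could be left out without losing the call. Of 10 gamma-delta T cell genes 2 rose, against 10.5% of all tested genes. Cd163l1, a scavenger receptor, stood at 21.9 and 14.4 CPM on day 5 and 40.8 and 33 on day 7. 5830411N06Rik stood at 15.3 and 7.49 CPM on day 5 and 42.6 and 37.6 on day 7, and both calls were lost without day 5 d and without day 7 c. 

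Interferon-stimulated genes rose together. Of 25 tested genes of the type I interferon list, 21 rose and none fell, against 10.5% of all tested genes, and the median log2 change was 2.36. Isg15 (chromosome 4, 156199424 to 156200818), a ubiquitin-like protein whose promoter above holds 3 overlapping ISRE matches, stood at 8.67 and 9.13 CPM on day 5 and 44.9 and 77.8 on day 7 (log2 change 2.79 ± 0.36, adjusted p = 2.98e-05). Irf7, the factor that amplifies interferon production, stood at 0.934 and 1.63 CPM on day 5 and 8.38 and 13 on day 7 (3.06 ± 0.54). Rsad2, the antiviral enzyme viperin, stood at 2.4 and 1.23 CPM on day 5 and 14.9 and 17.8 on day 7 (3.16 ± 0.60). In all 3 the lowest day 7 library was more than 4-fold above the highest day 5 library. Slfn5, of the Schlafen family, rose from 0.133 and 0.272 CPM, 3 counts in all, to 12.3 and 12.3 CPM. That is a ratio of 60.9 with a 95% counting interval of 20.6 to 298.

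Irf9 and Stat2, of the interferon-activated complex, moved the same way and are named here after their values were seen. Irf9 stood at 16 and 15 CPM on day 5 and 58.9 and 66.8 on day 7 (log2 change 2.02 ± 0.22, adjusted p = 5.05e-06). Stat2 stood at 9.21 and 9.54 CPM on day 5 and 20.1 and 16.1 on day 7 (0.94 ± 0.19). Both had day 7 libraries close to each other and well apart from day 5. Ifit1, an RNA-binding antiviral protein with a pair of ISRE matches above, was low, at 0.934 and 1.23 CPM on day 5 and 4.19 and 4.08 on day 7 (adjusted p = 0.0149), and lost its call without any one of the 4 libraries. Oas2 had no count on day 5 and 0.838 and 1.53 CPM on day 7, at least 6.12-fold higher against a floor of 3 counts over the day 5 group, and it lost its call without day 5 c, day 5 d or day 7 d. Bst2, the most abundant member that did not pass, stood at 12.1 and 18.5 CPM on day 5 and 19.5 and 18.4 on day 7. With a library left out, 14 (without day 5 d) to 17 members rose, and 15 rose without day 7 d.

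MHC class I genes and their peptide-loading machinery rose as well, in 13 of 17 tested members with none falling, and a median log2 change of 0.90. Nlrc5, the transactivator of class I genes, stood at 3.2 and 5.18 CPM on day 5 and 28.8 and 28.5 on day 7 (log2 change 2.77 ± 0.45). Irf1, a factor induced by interferon, stood at 178 and 137 CPM on day 5 and 467 and 442 on day 7 (1.53 ± 0.12, adjusted p = 3.45e-07). H2-K1, a classical class I heavy chain, stood at 173 and 189.7 CPM on day 5 and 562 and 468 on day 7 (1.51 ± 0.15). B2m, the common light chain, stood at 384 and 440.0 CPM on day 5 and 692 and 667 on day 7 (0.72 ± 0.11). Tap1, a peptide transporter, stood at 55.6 and 56.3 CPM on day 5 and 133 and 124 on day 7 (1.2 ± 0.12). These 3, named after their values were seen, had tight replicates and no overlap between days. H2-Q7 stood at 17.2 and 16.3 CPM on day 5 and 119.6 and 96 on day 7 (2.68 ± 0.35). H2-Q4 stood at 15.2 and 27.1 CPM on day 5 and 68.8 and 64.6 on day 7 (1.66 ± 0.36, lost without day 5 c). H2-Q and other class I genes are near-identical copies, so their single values are uncertain. Tap2 did not pass, and its day 5 libraries were far apart, at 100.2 and 516 CPM on day 5 and 387 and 242 on day 7. The count was 10 to 12 with a library left out.

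**Figure D2:**
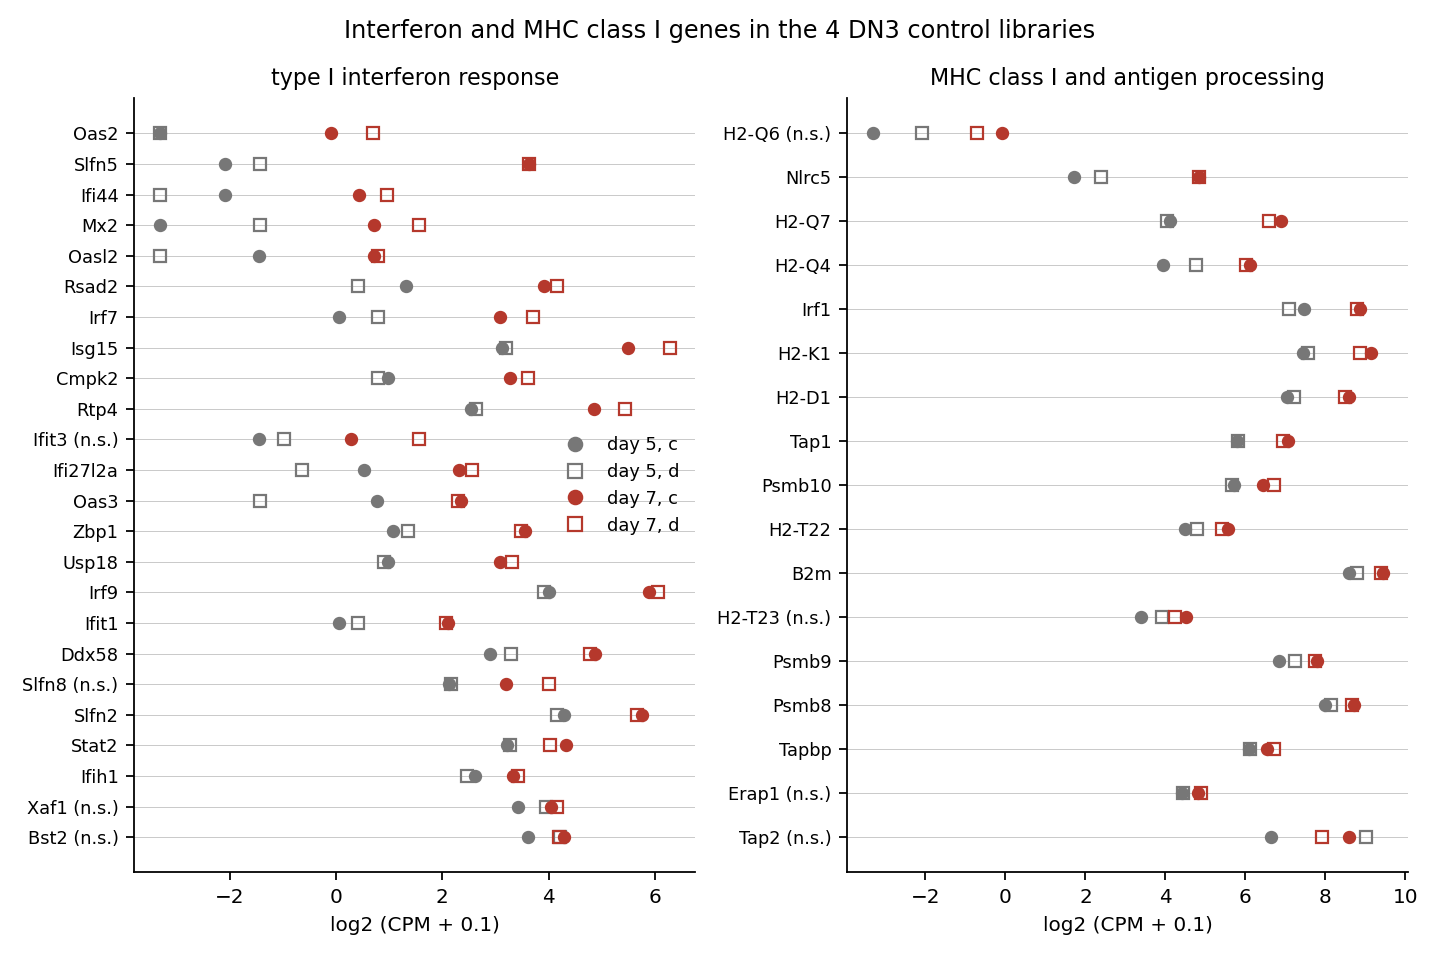
Level of tested members of the type I interferon list (left) and the MHC class I list (right) in the 4 DN3 control libraries, as log2 of CPM plus 0.1, ordered by fitted log2 change, with grey for day 5, red for day 7, filled circles for library c and open squares for library d. Members marked n.s. did not pass the test. Day 7 points lie to the right of day 5 points for nearly every member, and Tap2 shows day 5 libraries far apart, at 100.2 and 516 CPM.

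Among genes with a mean of at least 20 CPM on 1 of the days and no overlap between days, the 15 largest rises held many interferon-inducible GTPases. Some genes of lower level, such as Slfn5 above, had larger fitted changes. Iigp1 had the largest log2 change of the 15, at 1.73 and 2.32 CPM on day 5 and 66.7 and 65.4 on day 7 (log2 change 5.02 ± 0.28, adjusted p = 4.01e-09). Its unsorted day 4 libraries, with stroma, stood at 7.75 and 8.82 CPM. Tgtp2 stood at 11.7 and 8.85 CPM on day 5 and 101 and 94.8 on day 7 (3.25 ± 0.21), and its near-identical neighbour Tgtp1 at 12.8 and 13.6 CPM on day 5 and 96.6 and 105 on day 7 (2.93 ± 0.20), so reads may be split between them. Gbp6, a guanylate-binding protein, stood at 9.21 and 11 CPM on day 5 and 72.6 and 73.1 on day 7 (2.85 ± 0.25). Gvin1, a very large inducible GTPase with close copies, stood at 2.53 and 1.77 CPM on day 5 and 22.5 and 25.3 on day 7 (3.46 ± 0.39). Ifitm1, a membrane protein that restricts viral entry, stood at 17.5 and 14 CPM on day 5 and 136 and 126 on day 7 (3.06 ± 0.46). In these 6 genes no day 7 library came near a day 5 library.

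Others among these 15 rises encode adhesion and effector proteins. Fut7, which makes selectin ligands, stood at 2.13 and 1.63 CPM on day 5 and 23.7 and 20.7 on day 7 (log2 change 3.54 ± 0.21). Itgb7, the integrin beta 7 chain of gut homing, stood at 21.9 and 15.4 CPM on day 5 and 162 and 129 on day 7 (2.96 ± 0.28). Ms4a4b, a surface protein of T cells, stood at 9.07 and 11.3 CPM on day 5 and 108 and 81.8 on day 7 (3.22 ± 0.45). Tnfrsf9, the costimulatory receptor 4-1BB, stood at 4.54 and 4.63 CPM on day 5 and 38.7 and 35.7 on day 7 (3.01 ± 0.40). Ctla2a, a protease inhibitor with a close copy, stood at 1.87 and 3.13 CPM on day 5 and 24.1 and 17.7 on day 7 (3.05 ± 0.44). S100a4, a calcium-binding protein, stood at 55.4 and 42.6 CPM on day 5 and 458 and 347 on day 7 (3.04 ± 0.25). Lgals3, galectin 3, stood at 6.54 and 5.86 CPM on day 5 and 61 and 40.1 on day 7 (3.02 ± 0.61). S100a4 was also high in the unsorted day 4 libraries, at 549.6 and 559.6 CPM, in cultures that held stroma.

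Homing, adhesion and costimulation genes rose in part. Of 12 chemokine receptor and homing genes 7 rose, with none falling. Ccr7, the lymph node homing receptor, stood at 8.94 and 6.54 CPM on day 5 and 23.3 and 21 on day 7 (log2 change 1.51 ± 0.28). Ccr2 stood at 0.40 and 0.136 CPM on day 5 and 6.98 and 5.1 on day 7 (4.39 ± 0.75). S1pr1, the thymic exit receptor, stood at 2.27 and 3.13 CPM on day 5 and 13.8 and 8.36 on day 7. Klf2, which drives it and belongs to the CD4 and CD8 lineage list, stood at 15.2 and 12.1 CPM on day 5 and 38.2 and 27.4 on day 7, and both calls were lost without day 5 c, day 5 d or day 7 c. Cxcr4 stood at 259 and 265 CPM on day 5 and 331 and 304 on day 7 and did not pass. Of 20 integrin and adhesion genes 10 rose and 1 fell. Itgae, integrin alpha E, stood at 0.534 and 1.5 CPM on day 5 and 10.7 and 8.05 on day 7 (3.18 ± 0.52). Ly6a, Sca-1, stood at 12.9 and 10.4 CPM on day 5 and 83.8 and 67.2 on day 7 (2.69 ± 0.32). Ly6e was the member that fell, at 465 and 498 CPM on day 5 and 325 and 372 on day 7, though not without day 5 d or day 7 c. Of 13 costimulatory and inhibitory receptors 5 rose, among them Cd7 at 1.87 and 1.23 CPM on day 5 and 18.3 and 20.6 on day 7 (3.64 ± 0.45). Tnfrsf18, known as GITR, stood at 40.2 and 38.8 CPM on day 5 and 203 and 147 on day 7 (2.15 ± 0.35), while Ctla4 stood at 162 and 209.5 CPM on day 5 and 209 and 187 on day 7. Counts fell to 4 chemokine genes without day 5 c or day 5 d, and to 6, 5 and 4 adhesion genes without day 5 c, day 5 d and day 7 c.

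Targets of STAT5, the mediator of IL-2 and IL-7 signals, rose in 11 of 13 tested genes with none falling, at a median log2 change of 0.98. Cish, a feedback inhibitor, stood at 41.4 and 40.2 CPM on day 5 and 119 and 101 on day 7 (log2 change 1.43 ± 0.23, adjusted p = 2.09e-04). Ccnd2, cyclin D2, stood at 164 and 150.0 CPM on day 5 and 421 and 372 on day 7 (1.33 ± 0.15, adjusted p = 9.37e-06). Il2ra, the alpha chain of the IL-2 receptor and named after its values were seen, stood at 424 and 413 CPM on day 5 and 685 and 627 on day 7 (0.65 ± 0.10). Lta, lymphotoxin alpha, stood at 6.0 and 4.5 CPM on day 5 and 26.7 and 16 on day 7 (2.01 ± 0.29). Osm, oncostatin M, stood at 16.9 and 24.2 CPM on day 5 and 68.5 and 41.2 on day 7 (1.41 ± 0.34). In all 5 the groups were apart, but Osm lost its call without day 5 c and without day 7 c, and the list's count fell to 5 without either of these libraries. Ccnd3 stood at 1782 and 1496 CPM on day 5 and 1530.1 and 1506 on day 7 and did not pass. Of 19 cytokine receptors 6 rose, led by Il4ra at 11.9 and 11.9 CPM on day 5 and 56.5 and 40.1 on day 7 (2.02 ± 0.24). Il2rb, the IL-2 receptor beta chain, stood at 62.6 and 56.7 CPM on day 5 and 165 and 115 on day 7 (1.23 ± 0.35) and lost its call without day 5 c, day 5 d or day 7 c, each of which left 3 rises in the list. Il2rg did not pass, at 75.8 and 84.5 CPM on day 5 and 108 and 114 on day 7. Kit, the receptor of stem cell factor, rose in the early progenitor list at 3.74 and 5.18 CPM on day 5 and 26.1 and 16.2 on day 7 (2.23 ± 0.38), beside the rise of Cpa3 given above, whose part was not tested. Mycn was the other of 2 rises among 13 early progenitor genes, against 10.5% of all tested genes. Mycn stood at 5.74 and 5.04 CPM on day 5 and 12.7 and 9.18 on day 7. Its call was lost without day 5 c, day 5 d or day 7 c.

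Receptor signalling genes and immediate early genes showed smaller counts. Of 15 T cell receptor signalling genes 5 rose and none fell, led by Prkcq, protein kinase C theta, at 20.9 and 21.1 CPM on day 5 and 48.3 and 45.4 on day 7 (log2 change 1.15 ± 0.21). Tespa1, needed for selection of thymocytes, stood at 62.4 and 55.7 CPM on day 5 and 119 and 108 on day 7 (0.95 ± 0.16). Lck, the kinase bound to the coreceptors, stood at 822 and 764 CPM on day 5 and 729 and 773 on day 7 and did not pass, and 2 members rose without day 5 c or without day 7 c. Of 21 immediate early genes 5 rose, among them Dusp6, a phosphatase of ERK, at 14 and 13.2 CPM on day 5 and 52.8 and 39.9 on day 7 (1.76 ± 0.25). Jun stood at 6.8 and 7.08 CPM on day 5 and 19.3 and 16.4 on day 7 (1.35 ± 0.27).

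Targets of p53, the factor that answers DNA damage, rose in 14 of 17 tested genes with none falling, and the median log2 change was 1.09. Bbc3, the death protein PUMA, stood at 29 and 31.3 CPM on day 5 and 94.2 and 101 on day 7 (log2 change 1.69 ± 0.15, adjusted p = 9.41e-07). Zmat3 stood at 21.6 and 19.5 CPM on day 5 and 66.6 and 63.2 on day 7 (1.66 ± 0.15). Phlda3, an inhibitor of AKT, stood at 8.54 and 7.22 CPM on day 5 and 28.1 and 26 on day 7 (1.77 ± 0.21). The days did not overlap in any of these 3. Mdm2, the ligase that limits p53 and named after its values were seen, stood at 138 and 121 CPM on day 5 and 229 and 215 on day 7 (0.78 ± 0.12). Plk2 stood at 1.33 and 3.68 CPM on day 5 and 9.07 and 7.75 on day 7 and lost its call without day 5 c, and Gtse1, at 45.4 and 65.4 CPM on day 5 and 70.6 and 61.1 on day 7, did not pass. Leaving out a library kept 10 or 11 members by count. Of 12 tested survival genes 5 rose and 1 fell, the falls again no more than the 9.73% over all tested genes would give. Bcl2, which protects cells from death, stood at 345 and 329 CPM on day 5 and 713 and 611 on day 7 (0.98 ± 0.10, adjusted p = 4.10e-06). Pmaip1, the death protein NOXA, stood at 3.6 and 5.18 CPM on day 5 and 22.9 and 16.3 on day 7 (2.15 ± 0.29). Bid, a death-promoting protein, fell at 103 and 108 CPM on day 5 and 58.8 and 61.5 on day 7 (-0.81 ± 0.22), a call that held without day 5 c only. Without day 5 d, 3 survival genes rose, and 2 rose without each of the other 3 libraries.

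DNA replication genes fell together. Of 32 tested, 28 fell and none rose, against 9.73% of all tested genes, and the median log2 change was -0.65. Mcm7 (chromosome 5, 138164583 to 138172422), a subunit of the replicative helicase, stood at 773 and 737 CPM on day 5 and 331 and 398 on day 7 (log2 change -1.05 ± 0.10, adjusted p = 1.36e-06). Mcm2 stood at 342 and 401 CPM on day 5 and 181 and 191 on day 7 (-1.0 ± 0.15). Pcna, the polymerase clamp, stood at 375 and 488 CPM on day 5 and 215 and 231 on day 7 (-0.95 ± 0.14). Pole, a catalytic polymerase subunit, stood at 39.1 and 35.7 CPM on day 5 and 17.7 and 20.6 on day 7 (-0.96 ± 0.18). The highest day 7 library of each lay below the lowest day 5 library. The genes whose E2F matches are printed above followed: Mcm6 stood at 671 and 646 CPM on day 5 and 371 and 335 on day 7 (-0.90 ± 0.11). Mcm5 stood at 386 and 355 CPM on day 5 and 212 and 222 on day 7 (-0.77 ± 0.12). Cdc6 stood at 166 and 156 CPM on day 5 and 94.6 and 98.7 on day 7 (-0.74 ± 0.10). Gins2 did not pass, at 117 and 102 CPM on day 5 and 104 and 93.2 on day 7. Without day 7 c the count was 18, and it was 22 or 23 without each of the other 3 libraries.

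Cell division genes fell in 16 of 29 tested cases with none rising, at a median log2 change of -0.49. Bub1b, a spindle checkpoint kinase, stood at 289 and 325 CPM on day 5 and 135 and 144 on day 7 (log2 change -1.14 ± 0.13). Cdc20, which activates the anaphase ligase, stood at 334 and 289 CPM on day 5 and 151 and 161 on day 7 (-1.0 ± 0.17). Ccna2, cyclin A2, stood at 284 and 316 CPM on day 5 and 153 and 163 on day 7 (-0.92 ± 0.11). In each the day 7 level was near the same in both libraries. Cdk1, the mitotic kinase, stood at 877 and 741 CPM on day 5 and 445 and 445 on day 7 (-0.86 ± 0.11), and Top2a and Mki67, named after their values were seen, had log2 changes of -0.50 ± 0.09 and -0.47 ± 0.10, although Mki67 lost its call without day 7 c. Plk1, a mitotic kinase, stood at 762 and 601 CPM on day 5 and 393 and 392 on day 7 and did not pass (adjusted p = 0.47). It did with the 4 libraries alone (4.09e-04) and with no filter on low counts (3.07e-10). It did not with DESeq2's test (0.559), with DESeq2's scaling in edgeR's test (0.474) or with a filter of 50 counts (0.477). The list's count was 12 to 15 with a library left out. Of 18 G1 genes 7 fell and 6 rose. E2f1, a factor of S phase entry, fell at 125 and 105 CPM on day 5 and 53 and 61.3 on day 7 (-1.0 ± 0.13), as did the cyclins Ccne1 at 62.7 and 57.6 CPM on day 5 and 31.7 and 34.6 on day 7. Ccne2 stood at 54 and 63.5 CPM on day 5 and 32.9 and 30.9 on day 7. The inhibitor Cdkn1a, also a p53 target, rose at 92.9 and 89.6 CPM on day 5 and 173 and 172 on day 7 (0.92 ± 0.14), as did Cdkn2a at 1.33 and 0.681 CPM on day 5 and 5.3 and 5.91 on day 7 (2.46 ± 0.48). The count of falls was 4 without day 7 c or day 7 d, and that of rises was 3 without day 5 c or day 7 d.

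Growth genes fell with them. Of 20 tested MYC target and ribosome biogenesis genes 18 fell and none rose, at a median log2 change of -0.63. Srm, spermidine synthase, stood at 88.7 and 82.7 CPM on day 5 and 35.5 and 38.6 on day 7 (log2 change -1.21 ± 0.13, adjusted p = 7.06e-06). Fbl, fibrillarin of the nucleolus, stood at 446 and 448 CPM on day 5 and 245 and 247 on day 7 (-0.86 ± 0.14). Dkc1, a pseudouridine synthase, stood at 328 and 344 CPM on day 5 and 164 and 210.0 on day 7 (-0.85 ± 0.18), a call lost without day 7 c, and Nop56, at 199 and 169.7 CPM on day 5 and 129 and 155 on day 7, did not pass. Myc itself did not pass, with day 5 libraries apart from each other, at 16.1 and 53.8 CPM on day 5 and 36 and 22.6 on day 7. The count was 9 without day 7 c and 14 without each of the other 3 libraries. Of 19 mTORC1 and amino acid transport genes 10 fell and 3 rose. Slc7a5, a leucine transporter, stood at 121 and 129 CPM on day 5 and 63.4 and 58.6 on day 7 (-1.04 ± 0.23), and Shmt2 and Psat1, enzymes of serine metabolism, had log2 changes of -1.04 ± 0.13 and -1.04 ± 0.14. Sesn2, a restraint on mTORC1, rose at 5.47 and 4.9 CPM on day 5 and 11 and 16.3 on day 7. Ddit4, another such restraint, rose at 73 and 78.9 CPM on day 5 and 164 and 169.6 on day 7. Slc7a11, a cystine transporter, rose at 0.667 and 1.23 CPM on day 5 and 4.33 and 6.01 on day 7, but not without day 5 c or day 7 d.

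Oxidative phosphorylation genes fell in part and glycolysis genes rose in part. Of 19 oxidative phosphorylation genes 11 fell and none rose, with a median log2 change of -0.44, as in Atp5b, a subunit of ATP synthase, at 845 and 842 CPM on day 5 and 583 and 599.6 on day 7 (log2 change -0.51 ± 0.07). Cycs, cytochrome c, stood at 135 and 137 CPM on day 5 and 77.8 and 93.4 on day 7 (-0.67 ± 0.12). Of 17 glycolysis genes 10 rose and none fell, with a median of 0.47. Slc16a3, a lactate exporter, stood at 9.21 and 6.4 CPM on day 5 and 54 and 40.8 on day 7 (2.6 ± 0.36). Aldoc, an aldolase, stood at 5.07 and 4.36 CPM on day 5 and 28.9 and 24.1 on day 7 (2.48 ± 0.27). Slc2a1, the glucose transporter GLUT1, stood at 9.21 and 11.7 CPM on day 5 and 24.6 and 20.3 on day 7 (1.1 ± 0.23). The days were apart in all 3, but Ldha, lactate dehydrogenase, stood at 784 and 693 CPM on day 5 and 834 and 743 on day 7 and did not pass. Of 20 hypoxia response genes 11 rose and none fell, such as P4ha1, a collagen prolyl hydroxylase, at 23.6 and 22.2 CPM on day 5 and 62.7 and 48.8 on day 7 (1.28 ± 0.19). Bnip3, of mitochondrial turnover, stood at 17.1 and 10.8 CPM on day 5 and 45.2 and 29.8 on day 7 (1.42 ± 0.32, lost without day 5 d or day 7 c). Glycolysis counted 6, 5 and 3 rises without day 5 c, day 5 d and day 7 c, and hypoxia 5 and 4 without day 5 d and day 7 c. Oxidative phosphorylation counted 7 falls without day 7 c. Of 29 sterol and fatty acid synthesis genes 7 fell, led by Insig1, a sterol sensor, at 37.8 and 44.4 CPM on day 5 and 22.1 and 20.2 on day 7 (-0.96 ± 0.17). Without day 5 d, day 7 c or day 7 d, 4, 4 and 3 of them fell, and Scd2 stood at 940.2 and 972 CPM on day 5 and 994 and 906 on day 7.

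**Figure D3:**
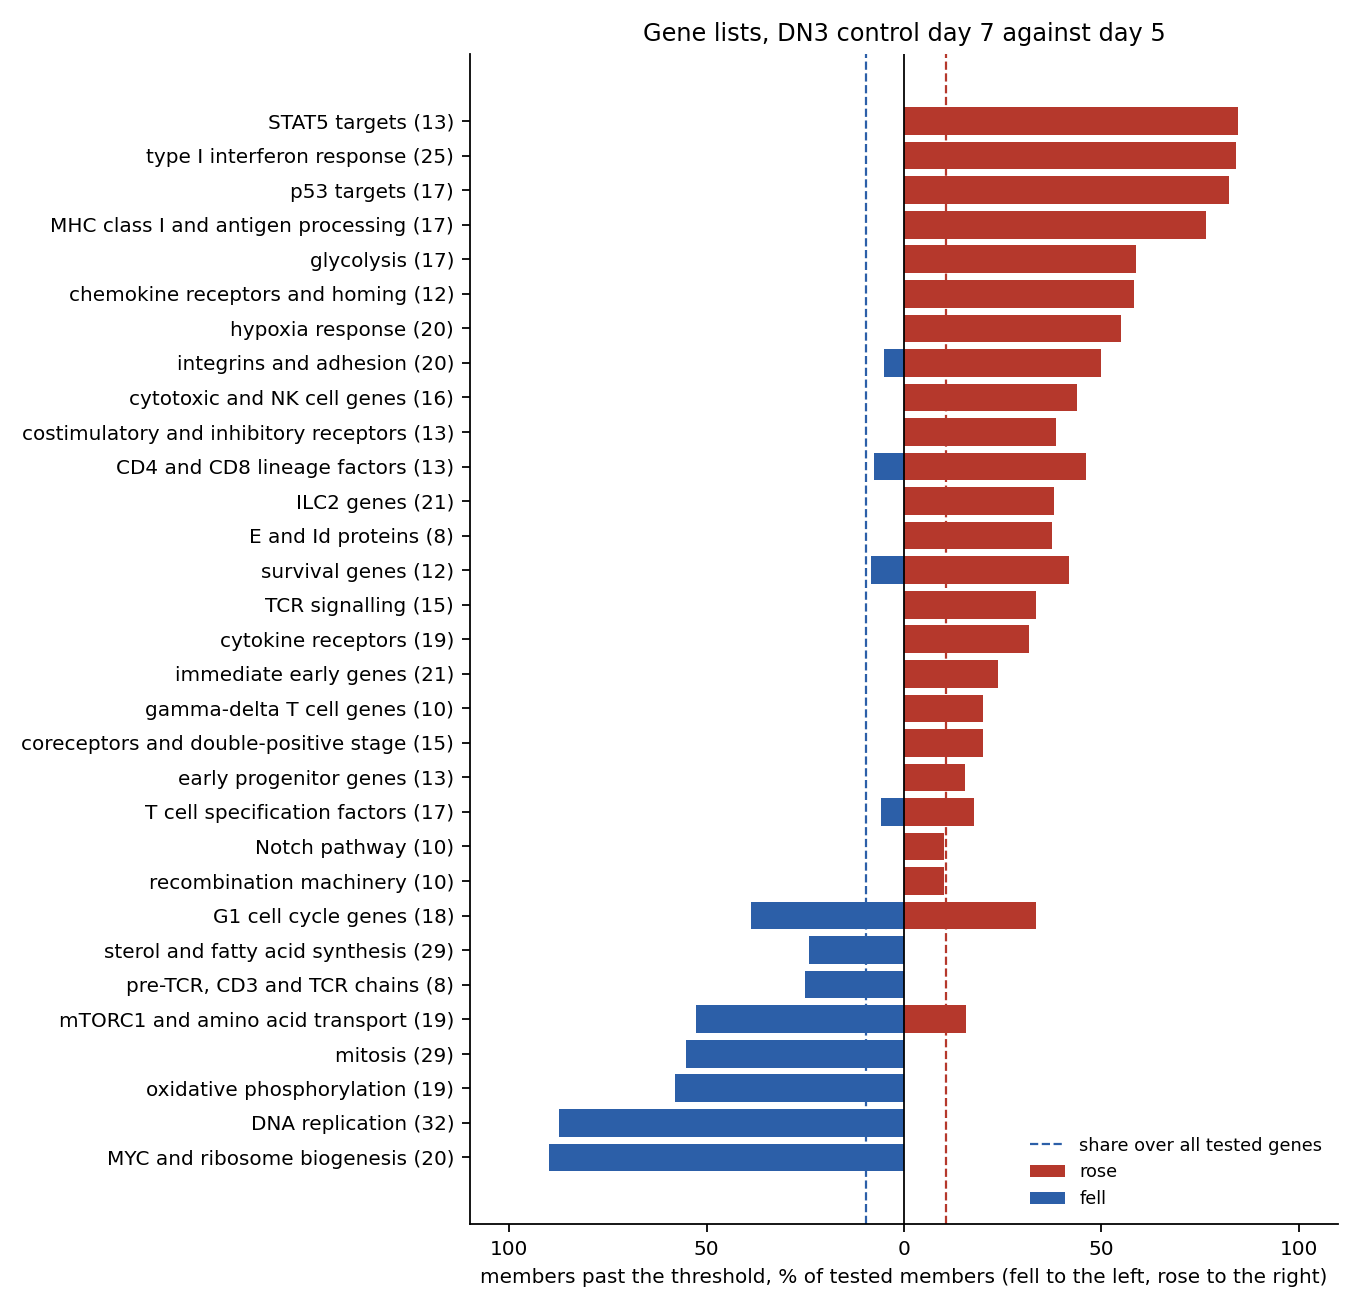
Share of tested members of each gene list with at least 8 tested members that rose (red, to the right) or fell (blue, to the left) between day 5 and day 7 in DN3 control cells, in percent, with the number tested in parentheses; dashed lines mark the shares over all tested genes, 10.5% rising and 9.73% falling. STAT5, interferon, p53 and MHC class I lists extend farthest to the right, and the MYC and replication lists farthest to the left.

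By the same choice of genes, the 15 largest falls were smaller than the rises. Several were genes of RNA processing, nucleotide supply and protein handling, and others, such as Bub1b, were not. Siah1b, a ubiquitin ligase, stood at 61 and 75.3 CPM on day 5 and 30.3 and 23.9 on day 7 (log2 change -1.34 ± 0.23). Hspbp1, a cofactor of HSP70, stood at 54.4 and 57.9 CPM on day 5 and 23.2 and 21.9 on day 7 (-1.32 ± 0.16). Prmt1, an arginine methyltransferase, stood at 691 and 752 CPM on day 5 and 269 and 329 on day 7 (-1.27 ± 0.12). Sf3a2, a splicing factor, stood at 111 and 135 CPM on day 5 and 50.3 and 53.8 on day 7 (-1.24 ± 0.16). Elavl1, the RNA-binding protein HuR, stood at 352 and 397 CPM on day 5 and 168 and 161 on day 7 (-1.19 ± 0.14). Nup93, of the nuclear pore, stood at 372 and 439 CPM on day 5 and 173 and 175 on day 7 (-1.22 ± 0.14). Ctps, which makes CTP, stood at 127 and 111 CPM on day 5 and 51.8 and 52.2 on day 7 (-1.2 ± 0.13). In these 7 genes both day 7 libraries lay below both day 5 libraries by a clear gap. Of the others, Srm and Bub1b are given above. Samd1, Ercc6l, Ybx3, Ciapin1 and Hgh1 fell by 1.14 to 1.17 on the log2 scale, and Hgh1 lost its call without day 5 d, day 7 c or day 7 d.

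The first outside comparison asks whether the same 2 days changed DN1 control cells differently. The test of the difference between the changes called 188 of 15172 genes (1.24%), 121 with a change more positive in DN3 (0.798%) and 67 more negative (0.442%). By their own tests, 979 genes rose (6.45%) and 1009 fell (6.65%) in DN1 control cells. Of the DN3 rises 516 also rose in DN1, which is 32.3% of the DN3 list and 52.7% of the DN1 list. Of the DN3 falls 556 also fell in DN1, 37.7% and 55.1% of the lists. The opposite direction was called for 11 of the DN3 rises and 3 of the falls. The 2 changes share no library. The count was 33 without DN3 day 5 d or DN3 day 7 c, 91 without DN3 day 5 c and 120 without DN3 day 7 d, and 69, 45, 43 and 56 without DN1 day 5 c, day 5 d, day 7 c and day 7 d.

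Of the MHC class I genes 7 of 17 were more positive in DN3 and none more negative, a count that was 2 without DN1 day 5 d or DN1 day 7 d, 4 without DN1 day 5 c or DN1 day 7 c, 3 without DN3 day 5 c, DN3 day 5 d or DN3 day 7 c, and 6 without DN3 day 7 d. Irf1 changed by a log2 of 0.03 ± 0.12 in DN1 cells, a difference of 1.5 ± 0.17 (adjusted p = 4.11e-04). H2-K1 changed by 0.09 ± 0.15 in DN1, a difference of 1.42 ± 0.21 (adjusted p = 0.00237). Neither DN1 change passed its test. Of the 25 interferon genes 11 rose in DN1 cells, at a median log2 change of 1.32, and the difference for Isg15 was 1.9 ± 0.49 (adjusted p = 0.0671). Among genes named by size, Fut7 differed by 2.49 ± 0.27, as its mean went from 31 to 64.1 CPM in DN1. Gzma, of the cytotoxic list, changed by -0.04 ± 0.17 in DN1, a difference of 1.6 ± 0.24, and Ccnd2 by -0.07 ± 0.15, a difference of 1.4 ± 0.21. Kit changed by -0.20 ± 0.27 in DN1, a difference of 2.43 ± 0.47. On the other side, Id3 rose more in DN1, by 1.94 ± 0.17, a difference of -1.25 ± 0.23. Cd3d rose by 1.78 ± 0.27 in DN1, where its mean went from 47.1 to 162 CPM, and the difference was -1.56 ± 0.36. Cd28, the costimulatory receptor, rose in DN1 by 1.9 ± 0.38 and stood at 84.2 and 91.5 CPM on day 5 and 81.2 and 78.1 on day 7 in DN3, a difference of -2.05 ± 0.48. The calls on Cd3d and Cd28 were lost without any 1 of the 8 libraries, that on Kit without 6 of them and that on Id3 without 5, whereas Fut7, Irf1, H2-K1, Gzma and Ccnd2 kept theirs.

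The second comparison asks whether the 2 days differed in cells that lose E2A and HEB, and 1093 of 15172 genes (7.20%) differed, 537 more positive in controls (3.54%) and 556 more negative (3.66%). In the DN3 floxed cells 2059 genes rose (13.6%) and 1658 fell (10.9%). Of the control rises 852 also rose there, 53.4% of the control list and 41.4% of the floxed list, and of the falls 629, 42.6% and 37.9%. The opposite was called for 43 of the control rises and 30 of the falls. Control and floxed libraries also differ in sex: mean Xist was 10.2 and 5.87 CPM in controls and 1791 and 1844 in floxed cells on days 5 and 7, so genotype and sex cannot be told apart. The count was 645, 537, 571 and 464 without control day 5 c, day 5 d, day 7 c and day 7 d, and 585 and 404 without floxed day 5 b and day 7 b. It stayed within 1.5 times of 1093 without floxed day 5 a or day 7 a. The genes deleted in the floxed cells were lower there: Tcf12 changed by -0.96 ± 0.10 and Tcf3 by -1.39 ± 0.38 between the days, with day 7 means of 160.5 and 24 CPM, counted over each gene and not over the deleted part alone.

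Several T lineage genes that did not pass in controls fell in floxed cells, while others, such as Cd3d (log2 change -0.14 ± 0.25) and Satb1 (-0.24 ± 0.17), did not pass there either. Rag1 changed by -4.7 ± 0.46 there, from a mean of 194 to 7.77 CPM, and the difference was 5.43 ± 0.57 (adjusted p = 4.17e-05). Cd8a differed by 3.78 ± 0.72 (adjusted p = 0.00424), Cd8b1 by 4.48 ± 0.79 and Cd4 by 3.08 ± 0.76 (adjusted p = 0.019). All 4 means fell in floxed cells while those of the controls were higher on day 7. Cd4 lost its call without day 5 c or day 7 d, and without floxed day 5 a, day 7 a or day 7 b. Dntt changed by -2.93 ± 0.38 in floxed cells and differed by 2.65 ± 0.51. By list, 10 of 15 coreceptor genes, 6 of 10 recombination genes and 7 of 17 T specification factors were more positive in controls, and none was more negative. The last count was 4 without floxed day 5 a and 3 without floxed day 7 b, and the others stayed within 1.5 times. Bcl11b differed by 0.88 ± 0.17, and Tcf7, which encodes TCF1, by 1.23 ± 0.21.

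Several effector and metabolic genes rose more in floxed cells than in controls. Gzmb went from a mean of 52.1 to 2946 CPM there, and the difference was -3.17 ± 0.67 (adjusted p = 0.00753). Tnfrsf9 differed by -2.59 ± 0.57, S100a4 by -2.16 ± 0.33 and Ifitm1 by -2.71 ± 0.62. Tnfrsf9 lost its call without control day 5 d, and Ifitm1 without control day 5 c or day 7 d and without floxed day 5 a or day 7 b. Id2 rose by 3.1 ± 0.22 in floxed cells, a difference of -2.19 ± 0.29 (adjusted p = 3.28e-04). Of 13 STAT5 targets 7 were more negative in controls, as were 13 of 17 glycolysis genes, 6 of 20 hypoxia genes and 6 of 21 ILC2 genes. The STAT5 count was 4, 2 and 2 without control day 5 c, day 5 d and day 7 d and 4, 3 and 2 without floxed day 5 a, day 5 b and day 7 b. The ILC2 count was 2, 1 and 1 without control day 5 c, day 5 d and day 7 d and 2 without floxed day 5 a or day 7 b, and glycolysis counted 8 without control day 7 d. Ccnd2 differed by -1.44 ± 0.21, and Ldha, which rose by 1.18 ± 0.10 in floxed cells, by -1.08 ± 0.14. Of the 25 interferon genes 19 rose in floxed cells, at a median log2 change of 1.98, and the difference from controls was 0.62 ± 0.50 for Isg15 (adjusted p = 0.533). Replication genes fell in both, 27 of 32 in floxed cells, while 9 of 29 mitosis genes were more positive in controls, Birc5, which encodes survivin, by 0.67 ± 0.12. The mitosis count was 5 without control day 5 d, day 7 c or day 7 d and without floxed day 5 a or day 7 b. Of 20 MYC and ribosome genes 5 were more negative in controls, Srm by -1.07 ± 0.19, and 2 or 3 were so without each library but floxed day 5 a.

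**Figure D4:**
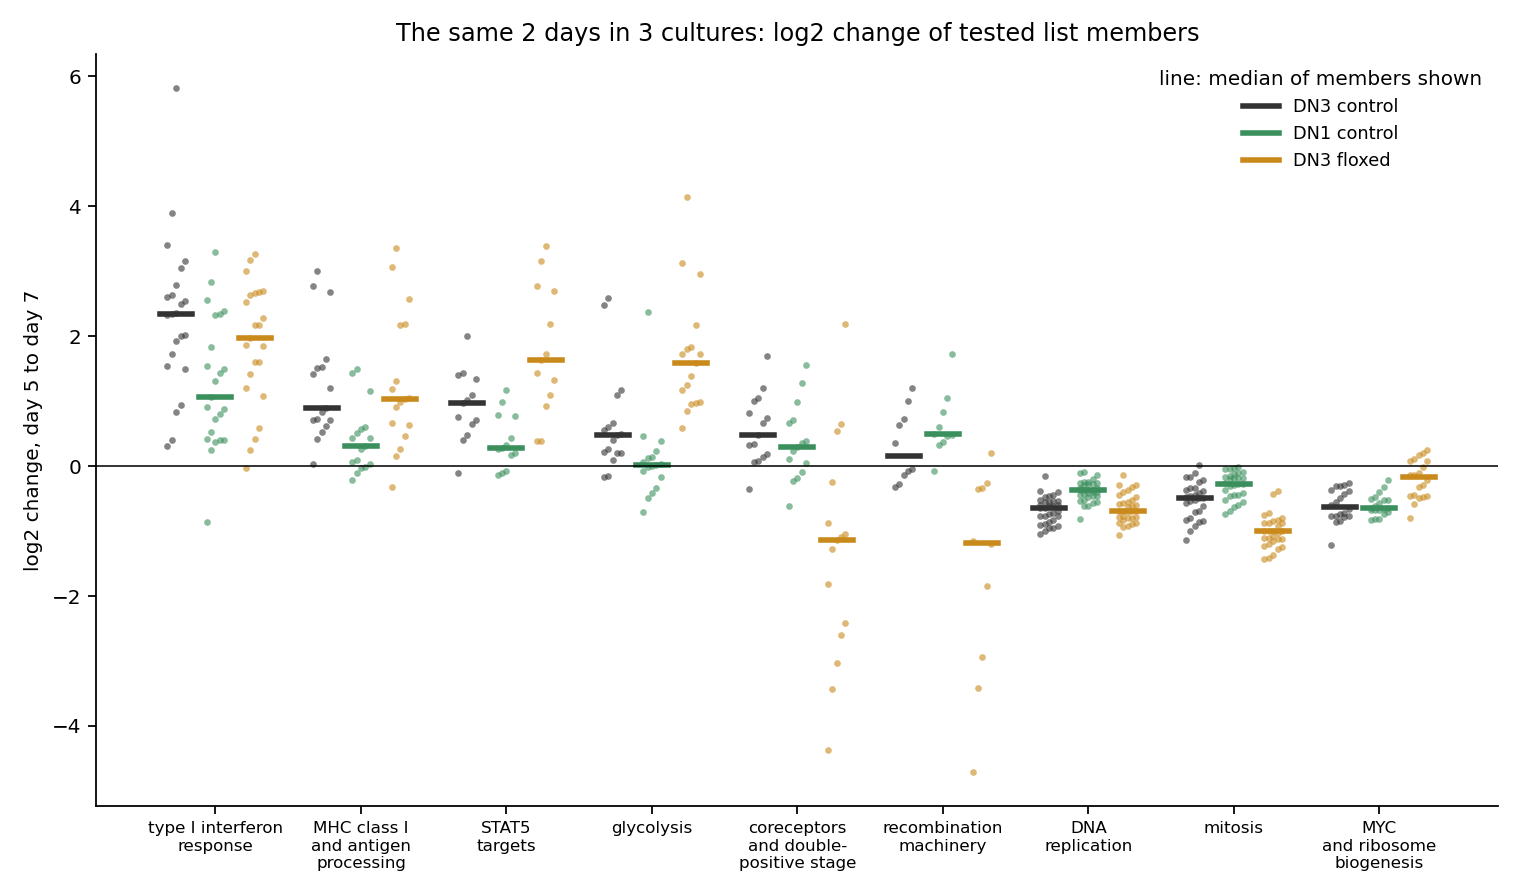
Fitted log2 change from day 5 to day 7 of tested members of 9 gene lists in DN3 control (black), DN1 control (green) and DN3 floxed cells (ochre), with 1 point per gene and a line at the median of the points. A gene with no count on day 5 in at least 1 of the 3 cultures is left out, so medians can differ from those in the text. The medians of coreceptor and recombination genes lie below 0 in floxed cells and above 0 in DN3 controls, that of glycolysis genes is highest in floxed cells, and that of interferon genes lies above 0 in all 3.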

How the data were processed

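RNA-seq of cultured mouse thymocytes was analysed from the raw read counts per gene that the authors deposited as a single table, with 48881 genes. Total RNA was extracted with trizol and sequenced on an Illumina instrument, per the labels' protocols. The build mm10 and the tool DESeq2 are named, with no version, in the submitters' processing notes. No source used here names the aligner, the counter or its annotation. Names and positions come from GENCODE M21 on GRCm38, the same assembly, which held 48578 of the genes.

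Counts of the 24 culture libraries were fitted with edgeR 4.0.16 (R 4.3.3), with a mean for each of the 12 groups, TMM scaling, a filter at a minimum count of 10, the quasi-likelihood test and Benjamini-Hochberg adjustment over 15172 genes at 0.05. DESeq2 1.42.0 served as an alternative, with others on scaling, filters, fitted libraries, a fold threshold of 1.5 and each library left out. Standard errors were derived from the test's F statistic. The fit was tested on simulated counts. A gene's counting interval (95%) and floor (3 counts) cover counting error only.

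Named genes are the 15 largest rises and falls without overlap between days and with at least 20 CPM, the 5 largest each way in each comparison of cultures, the 4 markers and, of each of the 40 gene lists (628 genes), up to 4 members each way and the most abundant that did not pass. Cd3e, Tcf3, Tcf7, Dtx1, Dlk1, Ebf1, Vpreb1, Il4, Ifit1, Oas2, Stat2, Irf9, B2m, H2-K1, Tap1, Mcm5, Mcm6, Cdc6, Il2ra, Myc, Mdm2, Top2a, Mki67, Birc5 and the defining markers of other cells near 0 fall outside that rule and were chosen after their values were seen. A few genes are not reported here. The members and lists were chosen with earlier results of these data known. The lung and thymic ILC2 libraries were not used in any test here. The unsorted day 4 libraries entered the tests only through the filter, the scaling and the estimate of the spread, so they helped decide which genes were tested. Replicate libraries differed by more than sampling noise on both days.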

Additional observations from a re-analysis of the deposited data

Results flagged for a closer look

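Genes whose change from day 5 to day 7 in DN3 control cells differed from that of another culture by the interaction test (edgeR's quasi-likelihood test, adjusted p under 0.05) and that are named in the text are listed here, each with the log2 difference between the 2 changes in parentheses; no library is shared between the changes. Those named after their values were seen were picked from genes past the threshold.

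Against DN1 control cells, the change was more positive in DN3 control cells for Slc7a8 (3.32), St3gal2 (3.31), Emilin2 (3.22), Iigp1 (2.81), Ccdc102a (2.75), Ctla2a (2.64), Fut7 (2.49), Kit (2.43), Tgtp2 (2.02), Itgb7 (1.96), Gzma (1.60), Irf1 (1.5), Tgtp1 (1.45), H2-K1 (1.42) and Ccnd2 (1.40). St3gal2, a sialyltransferase, and Slc7a8, an amino acid transporter, had the steepest differences with Emilin2, of the extracellular matrix. Slc7a8 kept its call without 4 of the 8 libraries, and Emilin2 lost it without DN3 day 5 c or day 5 d. The change was more negative for Cd28 (-2.05), Scand1 (-1.74), Tnfrsf8 (-1.62), Cd3d (-1.56), Insig1 (-1.53), Samd1 (-1.39), Id3 (-1.25), Elavl1 (-0.89) and Bub1b (-0.83). Insig1 and Scand1 kept this call without any 1 of the 8 libraries, and Cd28, Cd3d, Tnfrsf8 and Elavl1 lost it without each of the 8 in turn.

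Against DN3 floxed cells, the change was more positive in DN3 control cells for Fbp1 (7.18), Rag1 (5.43), Cd8b1 (4.48), Cd8a (3.78), Cd4 (3.08), Dntt (2.65), Tcf7 (1.23), Tcf12 (0.98), Bcl11b (0.88) and Birc5 (0.67). Fbp1, a gluconeogenic enzyme, had no count in either floxed day 7 library, against a mean of 1.94 CPM on day 5, so its value has no exact size and depends on the fit's prior count, and it lost its call without floxed day 7 b, while Rag1, Cd8b1 and Cd8a kept theirs without any 1 of the 8 libraries. The change was more negative for Dennd5a (-3.95), Ppp2r3a (-3.41), Gzmb (-3.17), Emilin2 (-3.15), Samhd1 (-3.12), Lgals3 (-3.10), Ifitm1 (-2.71), Tnfrsf9 (-2.59), Id2 (-2.19), S100a4 (-2.16), Ccnd2 (-1.44), Scand1 (-1.38), Ldha (-1.08), Srm (-1.07), Insig1 (-1.02), Elavl1 (-0.83), Ciapin1 (-0.82), Ctps (-0.74), Hspbp1 (-0.74), Prmt1 (-0.72) and Nup93 (-0.66). Dennd5a, Ppp2r3a, Gzmb, Samhd1 and S100a4 kept this call without any 1 of the 8 libraries. Lgals3 lost its call without 6 of the 8, Hspbp1 without 7 and Nup93 without 6. Genotype and sex cannot be told apart in these differences.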

How the results depend on the processing

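The DN3 control comparison called 3073 genes, and 2734 to 3825 under DESeq2's scaling or test, other filters or fewer fitted libraries; 429 differed by more than 1.5-fold (368 higher and 61 lower, so the share higher went from 52.0% to 85.8%). With 1 library left out, 1535 to 1990 genes were called. The DN1 comparison called 188 genes, against 377 with DESeq2's test, 446 with no filter, 950 with only the libraries compared and 15 beyond 1.5-fold, and 33 to 120 with 1 library left out. The floxed comparison called 1093, against 151 beyond 1.5-fold and 404 to 887 with 1 library left out. These leave-one-out fits have fewer libraries and assume that the lone library varies like the others. Of 167 named genes called, 113 kept the call in every setting that tested them, 54 lost it in at least 1 and none reversed. Of 50 not called, 13 were called in at least 1. These tallies leave out the 1.5-fold threshold and the crossed letters given below. A gene that a setting did not test was not counted as lost there. Whether the letters pair the libraries is not stated in the sources used here. Differences between c and d correlated at -0.18 between days 5 and 7, which cannot settle it, as noise could hide a pairing. With a replicate block by letter, 2996 genes were called in the DN3 control comparison, Cd8a, Cd8b1 and Plk1 now among them (adjusted p = 0.0358, 0.0101 and 0.0254), and with crossed letters, added after seeing the data, 3032. At this depth, changes of genes below about 1 CPM rest on fewer than 10 counts a library.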

Other observations

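The day 5 libraries agreed less well in a few genes than the rest did. Of 3842 genes with a mean of at least 50 CPM on day 5, 6 differed more than 3-fold between the libraries, and all 6 were higher in d. On day 7, 0 of 3806 such genes did. Tap2, the partner of the peptide transporter Tap1, stood at 100.2 and 516 CPM in c and d. Idi1, of sterol synthesis, stood at 41.0 and 188 CPM. Snrpf, a core spliceosome protein, stood at 94.5 and 327 CPM, and Ppp4c, a phosphatase, at 27.4 and 96.4 CPM. The other two, Gm5905 and Gm13092, are processed pseudogenes, at 9.34 and 173 CPM and at 21.5 and 90.6 CPM. Each of these genes was chosen after its values were seen.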
